A study of Caenorhabditis elegans with 6 samples.

Results

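The genes described here are the 7 that code for the large heat shock proteins of the cytosol and the mitochondrion in Caenorhabditis elegans. They are hsp-1 (F26D10.3), hsp-110 (C30C11.4), daf-21 (C47E8.5), hsp-70 (C12C8.1), hsp-6 (C37H5.8), hsp-60 (Y22D7AL.5) and hsp-75 (R151.7). They were chosen by name and not by their response, though with earlier results of these data known. They are 7 of the 18889 genes on the array. Each had 1 probe except hsp-75, which had the probes R151.7a and R151.7b, so that 8 probes gave 48 spots on 6 arrays. Of the 7 genes, 6 had enough unmarked spots for a test and hsp-70 did not.

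Worms of the strain N2 were grown from synchronized eggs for 72 h at 16 °C on agar with bacterial food. One group was grown with acetone as the control and the other with a low dose mixture (LDM) of the organophosphorus pesticides chlorpyrifos (CPF) and diazinon (DZN) in acetone. The doses were 0.5 for CPF and 1 for DZN, which the labels give in mg per ml and the methods of the study in mg per litre. The samples were whole worms of the stage labelled L3/L4, each pooled from 4 dishes according to the methods, so that fewer cells of a type and less RNA per cell cannot be told apart. Every array compared 1 LDM sample with 1 control sample. The LDM sample carried either the dye Cy5 or the dye Cy3, with 3 arrays of either kind. The former are called Cy5 arrays 1 to 3 and the latter Cy3 arrays 1 to 3, numbered as in the labels (LDM in Cy5 or LDM in Cy3, replicates 1 to 3, in the plots).

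HSP70 proteins hold unfolded stretches of protein in cycles of ATP hydrolysis, with J-domain proteins that deliver clients and exchange factors that release the nucleotide. HSP90 proteins act later on signalling proteins that are nearly folded, and HSP60 forms a closed chamber in which mitochondrial proteins fold. In the worm, transcription of hsp-70 is induced by heat through the heat shock factor HSF-1, and that of hsp-6 and hsp-60 by misfolding in the mitochondrion through ATFS-1.

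The arrays differed in quality. Spots with code 3 of the image software were taken as unmarked from their signal, as the meaning of its codes is not stated. Gene spots of this kind made up 37.6% to 41.9% on the Cy5 arrays against 56.5% to 61.4% on the Cy3 arrays. The median Cy5 intensity was 273 to 368 on the former and 849.5 to 1259 on the latter. The log2 ratios of LDM over control correlated between arrays with r from -0.35 to 0.42 over unmarked spots. The lowest value was that of Cy5 arrays 2 and 3, for which r was -0.23 over all gene probes. The control samples of Cy5 array 3 and Cy3 array 1 carried the same number in the scanner headers, so that 5 distinct control numbers stood behind the 6 arrays. Of 7989 genes tested with limma, 25 were higher and 5 lower with the LDM at an adjusted p under 0.05, and the median log2 ratio of all genes was -0.03.

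No chaperone gene passed either test for an effect of the LDM. Of the 6 genes tested, 0 passed limma, where 0.376% of all genes tested passed. By rank product, which ranks the ratios within each array, 0 passed at a percentage of false positives under 0.05, where 1.75% of all genes did. At an unadjusted p under 0.05, 1 of the 6 genes, hsp-75, was below control, where 9.33% of all genes were past this limit in either direction. The fitted log2 ratio was above 0 for hsp-1, hsp-6 and hsp-60 and below 0 for hsp-75, hsp-110 and daf-21, with a median of -0.04.

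**Figure D1:**
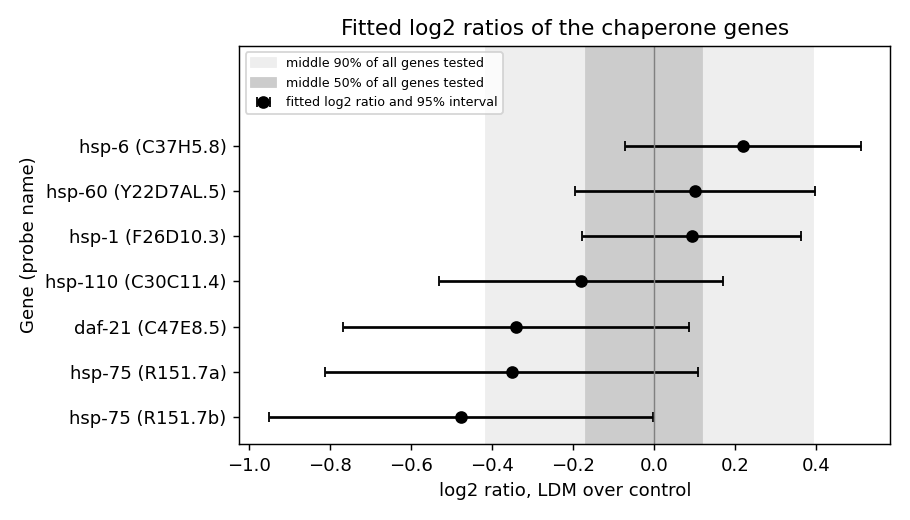
Fitted log2 ratio of LDM over control (x axis) for each tested probe (y axis), with its 95% interval from limma; the grey bands hold the middle 50% and 90% of all genes tested. The intervals of 6 probes include 0, that of hsp-75 (R151.7b) ends at -0.0019, and only this point lies outside the wider band, which runs from -0.41 to 0.39.

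HSC70, the constitutive HSP70 of the cytosol, is coded by hsp-1. Its log2 ratios were 0.05, -0.16 and -0.03 on Cy5 arrays 1 to 3, and 0.38, 0.24 and 0.08 on Cy3 arrays 1 to 3. Thus 4 of 6 arrays lay above control, and the Cy3 arrays lay above all 3 Cy5 arrays. This order did not hold in the log2 ratios deposited by the authors. There 5 of 6 arrays lay above control, and Cy5 array 1 was highest at 0.47. The fitted log2 ratio of hsp-1 was 0.09 (standard error 0.12, 95% interval -0.18 to 0.36, adjusted p = 0.853 from limma). The spot was at the ceiling of the scanner, with at least 50% of its pixels saturated in Cy5 on all 6 arrays, and up to 50.8% in Cy3 on 4 arrays. The LDM channel held saturated pixels on 5 arrays and the control channel on 5, but not to a like extent. Outside Cy5 array 3, at most 9.2% of Cy3 pixels were saturated. Saturation thus lay mainly in the LDM channel on Cy5 arrays 1 and 2, and mainly in the control channel on the Cy3 arrays. A ratio between signals at the ceiling is limited in size, and with saturated spots left out hsp-1 could not be tested. Its estimate also moved with the normalization, to 0.42 (adjusted p = 0.345 from limma) with median centring in place of loess.

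HSP-110, a distant relative of HSP70, exchanges the nucleotide of HSP70 and takes part in dissolving protein aggregates. The log2 ratios of hsp-110 were -0.36, 0.07 and -0.91 on Cy5 arrays 1 to 3, and 0.05, 0.11 and -0.03 on Cy3 arrays 1 to 3. The arrays were evenly split, with 3 of 6 above control, and Cy5 array 3 stood lowest. On that array the scanner read an intensity of 13449 for LDM against 32685 for the control. The model gave a log2 ratio of -0.18 (standard error 0.15, 95% interval -0.53 to 0.17, adjusted p = 0.789 from limma). Leaving out Cy5 array 3 gave -0.05, and leaving out Cy5 array 2 gave -0.30.

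The cytosolic HSP90 of the worm is the product of daf-21, which RefSeq now lists as hsp-90. It is known for its part in dauer formation, chemosensation and germline development. Its log2 ratios were -1.04, 0.13 and -1.04 on Cy5 arrays 1 to 3, and 0.21, -0.08 and -0.22 on Cy3 arrays 1 to 3. On the linear scale its ratio was 0.486 on both Cy5 arrays 1 and 3, while the other 4 arrays lay between 0.859 and 1.16. It was below control on 4 of 6 arrays. Fitted over all arrays, the log2 ratio of -0.34 (standard error 0.18, 95% interval -0.77 to 0.09) did not pass limma (adjusted p = 0.638). It was -0.24 with either Cy5 array 1 or Cy5 array 3 left out, -0.53 with Cy5 array 2 left out, and -0.11 with median centring in place of loess. The spot was saturated in the control channel on 3 arrays, at up to 50.8% of pixels, and in the LDM channel on 1 array. One of the 3 was Cy5 array 3, with 29.2% of Cy3 pixels at the ceiling, and no pixel of either channel was at the ceiling on Cy5 array 1.

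Heat-inducible HSP70 is coded by hsp-70. Raw intensities of its probe were 233 to 1050 over local backgrounds of 150 to 226, and on all 6 arrays both channels exceeded the background by more than 2 of its SD. Both channels lay above the median of their array on Cy5 arrays 1 and 3 and below it on the Cy3 arrays. On Cy5 array 1 the probe read 347 in Cy5 and 374 in Cy3, where the medians were 279 and 302. With code 4 its spot was taken as marked on 3 arrays, namely Cy5 arrays 1 and 2 and Cy3 array 3, so that the gene was not tested. After normalization with marked spots kept, its log2 ratios were 0.13, -0.93 and -0.08 on Cy5 arrays 1 to 3, and 0.24, -0.10 and 0.25 on Cy3 arrays 1 to 3. Of the 6 arrays 3 lay above control, and the lowest value came from a marked spot. These ratios depended on the normalization. With loess on unmarked spots only, they ran from -2.30 to 1.29, both from marked spots, and Cy3 array 2 was at 0.08. Their standard deviation over arrays was then 1.28, against 0.44 with marked spots kept. In the fit that kept marked spots the log2 ratio was -0.08 (standard error 0.15, 95% interval -0.44 to 0.28, adjusted p = 0.902 from limma over 18889 genes).

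**Figure D2:**
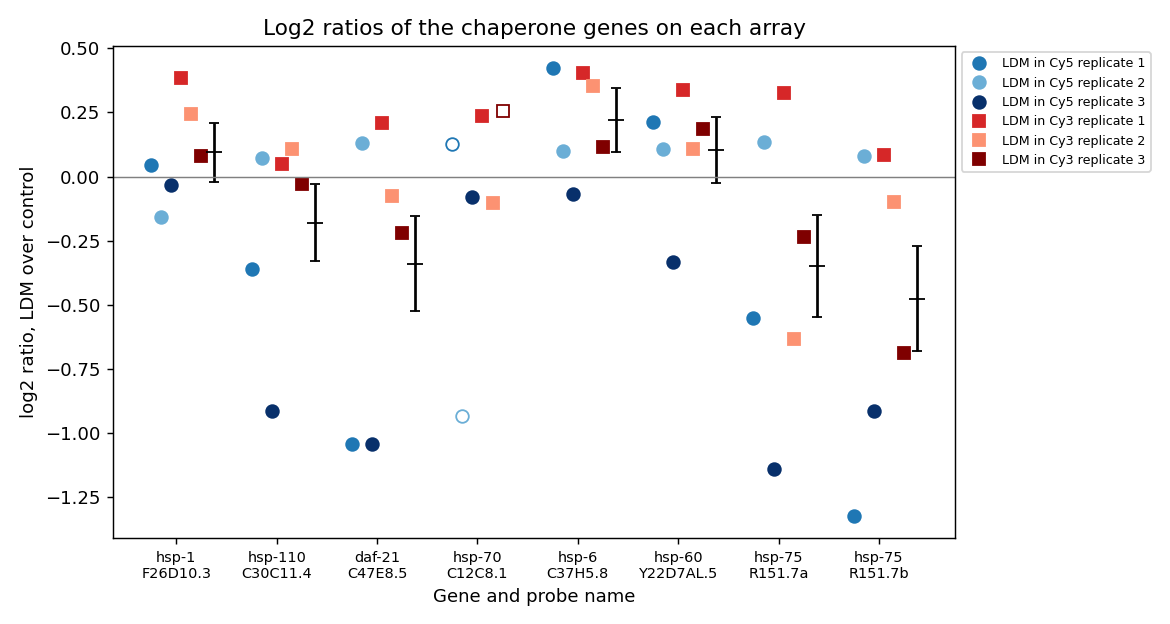
Log2 ratio of LDM over control (y axis) of each probe (x axis) on each array; circles are Cy5 arrays and squares Cy3 arrays, and black bars give the fitted ratio ± standard error. For hsp-70 the ratios are those with marked spots kept, open symbols being marked spots; the ratios of daf-21, hsp-110 and both hsp-75 probes on Cy5 arrays 1 and 3 lie between -1.32 and -0.36.

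In the mitochondrial matrix, HSP-6 is the HSP70 that pulls in and folds imported proteins. The log2 ratios of hsp-6 were 0.42, 0.10 and -0.07 on Cy5 arrays 1 to 3, and 0.40, 0.35 and 0.12 on Cy3 arrays 1 to 3. It was above control on 5 of 6 arrays and spread little between them. Of the genes measured on all 6 arrays, 8.1% had a smaller standard deviation over arrays. Its fitted value of 0.22 (standard error 0.13, 95% interval -0.07 to 0.51), a ratio of 1.17, did not pass limma (adjusted p = 0.659). None of its pixels was saturated, with intensities between 14575 and 27125. With print-tip loess, which normalizes each block of the array by itself, its log2 ratio was 0.09.

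The mitochondrial chaperonin HSP60 is coded by hsp-60. Its log2 ratios were 0.21, 0.11 and -0.33 on Cy5 arrays 1 to 3, and 0.34, 0.11 and 0.18 on Cy3 arrays 1 to 3. Again 5 of 6 arrays lay above control, with Cy5 array 3 apart from the others. Over all arrays its fitted value was 0.10 (standard error 0.13, 95% interval -0.19 to 0.40, adjusted p = 0.854 from limma). This became 0.18 when Cy5 array 3 was left out and 0.05 when Cy5 array 1 was. On the linear scale the intervals of this fit reach up to a ratio of 1.32 for hsp-60 and 1.43 for hsp-6. The gene Y22D7AL.10 codes for a relative of HSP10, the lid of the chaperonin chamber, and was at -0.07 (adjusted p = 0.909 from limma).

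TRAP1, the HSP90 of the mitochondrion, is coded by hsp-75. At the probe R151.7b, which represents the gene in the test, the log2 ratios were -1.32, 0.08 and -0.91 on Cy5 arrays 1 to 3, and 0.08, -0.10 and -0.69 on Cy3 arrays 1 to 3. On Cy5 array 1 the scanner read 697 for LDM and 2393 for the control, and on Cy5 array 3 it read 1762 and 5691. It was thus below control on 4 of 6 arrays, furthest on Cy5 arrays 1 and 3 and Cy3 array 3. Its fitted value was -0.48 (standard error 0.20, 95% interval -0.95 to -0.0019), a ratio of 0.719. Its unadjusted p of 0.0493 from limma did not hold after adjustment over all genes (adjusted p = 0.533), nor did it pass by rank product (percentage of false positives 0.618). Leaving out Cy5 array 1 gave -0.33, while leaving out Cy5 array 2 gave -0.68 with an adjusted p of 0.120 from limma.

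The probe R151.7a of hsp-75 gave log2 ratios of -0.55, 0.13 and -1.14 on Cy5 arrays 1 to 3, and 0.32, -0.63 and -0.24 on Cy3 arrays 1 to 3. Both probes lay below control on Cy5 arrays 1 and 3 and on Cy3 arrays 2 and 3, and above it on the other 2 arrays. The fitted value at R151.7a was -0.35 (standard error 0.20, 95% interval -0.81 to 0.11), with adjusted p = 0.643 from limma over all probes. Both probes measure the same samples, so that the second is no further replicate.

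**Figure D3:**
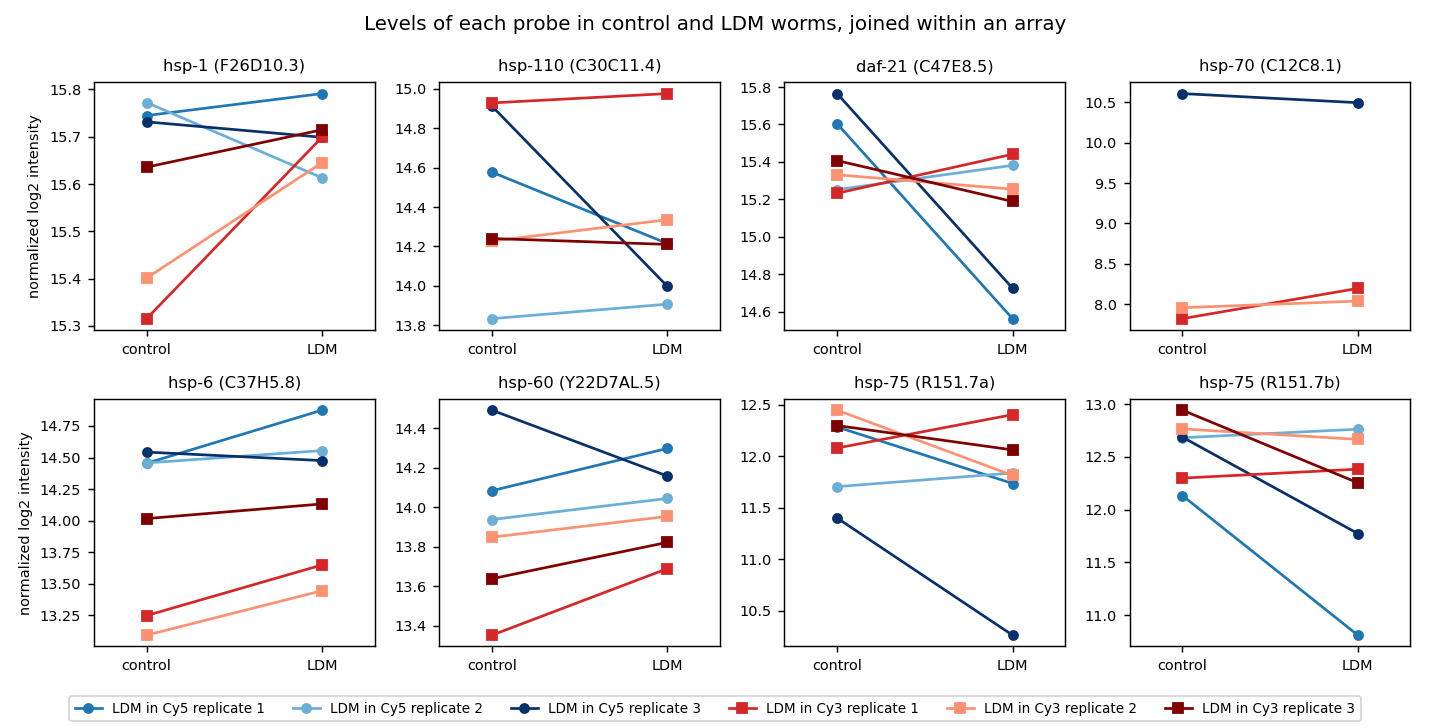
Normalized log2 intensity (y axis) of each probe in the control and the LDM channel (x axis), joined by a line within an array, without marked spots; each panel has its own scale. The lines of hsp-6 rise on 5 of 6 arrays, while those of daf-21 and hsp-75 (R151.7b) fall on Cy5 arrays 1 and 3 (log2 ratios of -1.32 to -0.91) and are flatter on the other arrays, apart from hsp-75 on Cy3 array 3.

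The chaperones differed in how steady their ratios were between arrays. The standard deviation over arrays was 0.19 for hsp-1, 0.20 for hsp-6 and 0.23 for hsp-60, and 7.35% to 13.3% of genes had a smaller one. It was 0.40 for hsp-110, 0.56 for daf-21 and 0.59 for hsp-75, where 47.0% to 74.3% of genes were steadier. Over all genes measured on 6 arrays the median was 0.41. The steady genes include hsp-1, whose range the saturation limits.

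The ratios of daf-21 and hsp-75 had a mean absolute difference of 0.18 over the 6 arrays, on 4 of which daf-21 held saturated pixels. The difference was smaller between hsp-6 and hsp-60, at 0.14. The largest mean difference among the 15 pairs was 0.70, between hsp-6 and hsp-75, the HSP70 and the HSP90 of the mitochondrion. With hsp-75 taken at its probe R151.7b, hsp-6 was above hsp-75 on 6 of 6 arrays, with differences from 0.02 (Cy5 array 2) to 1.74 (Cy5 array 1). At the probe R151.7a, hsp-75 was above hsp-6 on Cy5 array 2, at 0.13 against 0.10. No difference is given between hsp-1 and another chaperone, since its spot was saturated on every array. These pairs were chosen after their values were seen and were not tested.

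Low values of daf-21, hsp-75 and hsp-110 were shared by Cy5 arrays 1 and 3, while hsp-75 was also at -0.69 on Cy3 array 3. Of the 6 tested chaperone genes these 3 (50%) were below -0.3 on both Cy5 arrays 1 and 3. This limit and the 3 genes were chosen after the values were seen. On both of these arrays 15.1% of the 6491 genes measured on all arrays were below it. The median log2 ratio of the 6 chaperone genes was -0.16 and -0.62 on these arrays, 0.09 on Cy5 array 2, and 0.27, 0.11 and 0.02 on Cy3 arrays 1 to 3. Over all genes the medians of the arrays lay between -0.05 and -0.0022. In the mean over the Cy5 arrays, daf-21 was at -0.65, hsp-75 at -0.72 and hsp-110 at -0.40. The same genes were at -0.03, -0.23 and 0.04 on the Cy3 arrays. A difference between the orientations was not shown for any chaperone, since the dye term of the fit had adjusted p of at least 0.856 from limma.

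Markers of development also differed between the arrays. The worms expressed major sperm protein genes, which mark spermatogenesis and are near-identical copies that a probe may not separate. Of these 13 of 15 were tested and 0 passed either test, with a median fitted log2 ratio of -0.30. The summed normalized intensity of these genes was 181000 to 436000 in LDM samples and 248000 to 478000 in controls. Of the vitellogenins, yolk proteins of the adult intestine, 5 of 6 were tested, and their summed intensity was 4690 to 48800 with the LDM and 9910 to 93500 in controls. Their median log2 ratios were -1.31, -1.76 and -2.37 on Cy5 arrays 1 to 3, and -2.93, -0.72 and 2.44 on Cy3 arrays 1 to 3. By rank product 4 of the 5 vitellogenins, all but vit-2, were lower with the LDM, and 0 passed limma, with 1 at an unadjusted p under 0.05.

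Of 8 oocyte genes, 3 were tested, with 0 past either test and a median fitted log2 ratio of -0.05, and 5 had too few unmarked spots. The summed intensity of the 3 was 2330 to 7980 with the LDM and 2670 to 7560 in controls. On Cy5 array 3 the median log2 ratio was -1.20 for sperm genes and -1.25 for oocyte genes. On Cy5 array 1, where daf-21 and hsp-75 were low too, these medians were -0.33 and 0.10. On Cy3 array 1 the sperm genes were at -1.03 while daf-21 was at 0.21 and hsp-75 at 0.08. The part of the stage of the worms in the ratios of the chaperones was not tested.

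**Figure D4:**
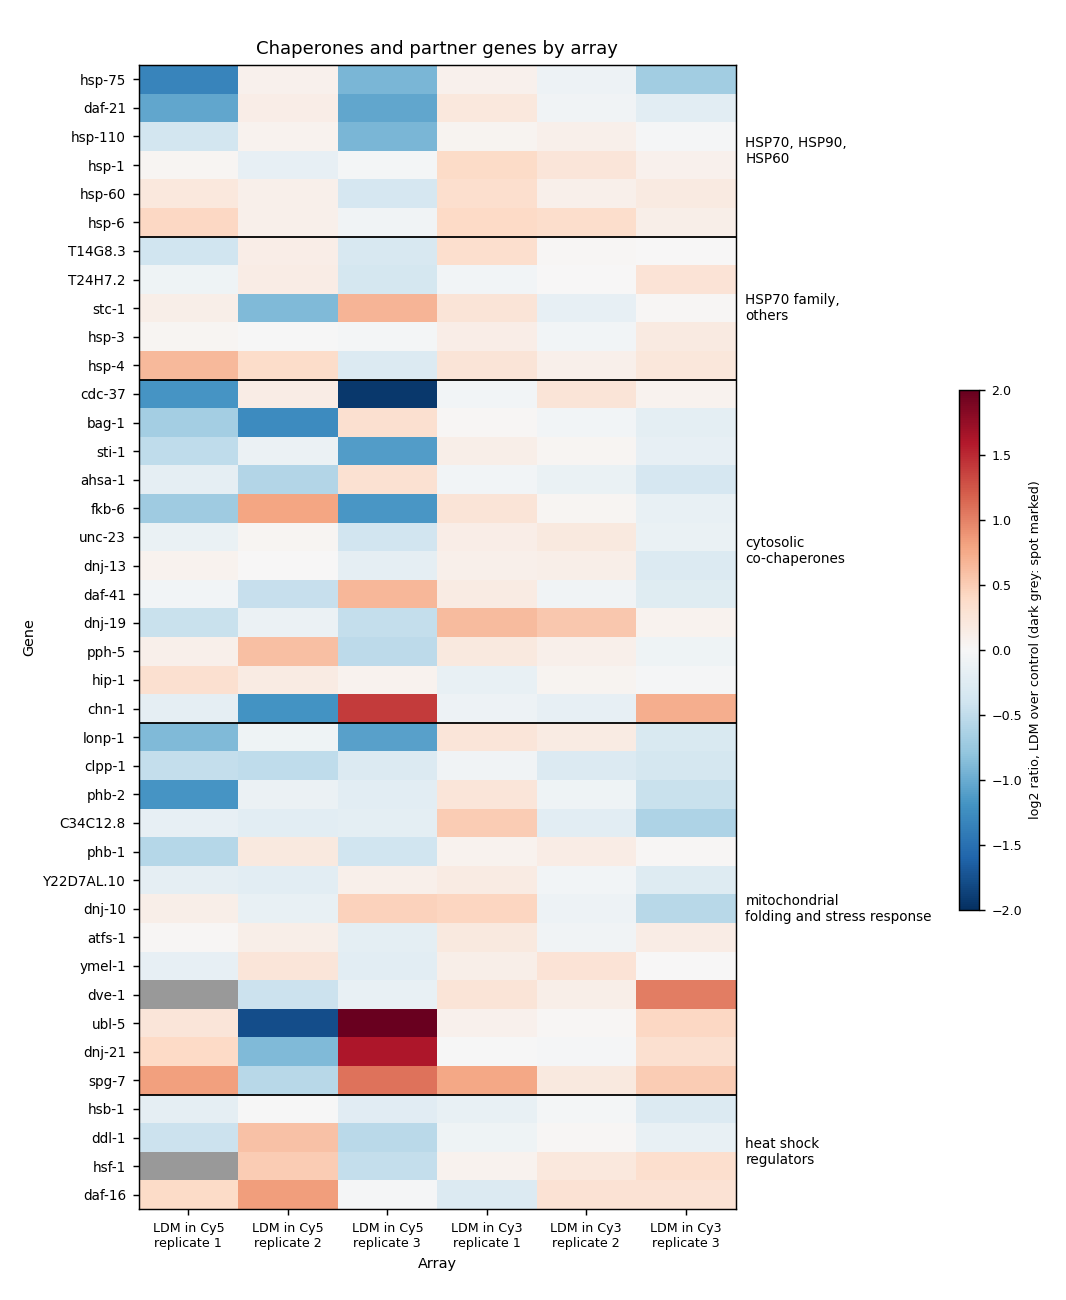
Log2 ratio of LDM over control (colour) of the 6 tested chaperone genes and the tested genes of 4 partner lists (y axis, ordered within a list by fitted ratio) on each array (x axis); dark grey cells are marked spots. Blue cells of daf-21, hsp-75, hsp-110, cdc-37, sti-1 and lonp-1 stand in the columns of Cy5 arrays 1 and 3, where their ratios lie between -1.93 and -0.36. Other partners are above control on Cy5 array 3, with ubl-5 at 1.97, dnj-21 at 1.62 and chn-1 at 1.39. There spg-7 is at 1.09 and daf-41 at 0.66. On Cy5 array 2 ubl-5, dnj-21, chn-1, spg-7 and daf-41 lie between -1.77 and -0.46.

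None of the partners of the cytosolic chaperones passed a test. Of 14 co-chaperone genes 12 were tested, and 0 passed limma or rank product, nor did any have an unadjusted p under 0.05. Their fitted log2 ratios ran from -0.45 to 0.08, with 5 above and 7 below 0 and a median of -0.04, against -0.03 for all genes. cdc-37, which brings protein kinases to HSP90, had log2 ratios of -1.18, 0.16 and -1.93 on Cy5 arrays 1 to 3, and -0.05, 0.25 and 0.07 on Cy3 arrays 1 to 3. As for daf-21, the values far below control were those of Cy5 arrays 1 and 3, and the fitted value was -0.45 (standard error 0.25, adjusted p = 0.648 from limma).

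sti-1, the homologue of HOP, which links HSP70 to HSP90, was at -0.50 and -1.12 on Cy5 arrays 1 and 3 and between -0.17 and 0.12 on the other arrays. Its fitted log2 ratio was -0.29 (standard error 0.16, adjusted p = 0.63 from limma). Along with cdc-37 and sti-1, fkb-6 and dnj-19 were below -0.3 on both arrays, 4 of the 12 co-chaperones (33.3%, against 15.1% of all genes). On Cy5 array 3 others lay above control. Among them were chn-1, a ubiquitin ligase that binds HSP70, at 1.39, and daf-41, the homologue of the HSP90 co-chaperone p23, at 0.66. There bag-1 was at 0.32 and ahsa-1 at 0.30. On Cy5 array 2 chn-1, daf-41, bag-1 and ahsa-1 were at -1.20, -0.46, -1.26 and -0.58. Apart from cdc-37, sti-1, bag-1 and ahsa-1, these genes were singled out after their values were seen. Over all arrays bag-1, an exchange factor of HSP70, had a fitted log2 ratio of -0.30 (adjusted p = 0.712), and ahsa-1, the activator of the HSP90 ATPase, -0.16 (adjusted p = 0.794).

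No other gene of the HSP70 family passed a test. Of 8 further genes of the family 6 were on the array and 5 were tested, of which 0 passed limma or rank product, or had an unadjusted p under 0.05. hsp-4, the inducible HSP70 of the endoplasmic reticulum, had log2 ratios of 0.65, 0.37 and -0.28 on Cy5 arrays 1 to 3, and 0.25, 0.10 and 0.23 on Cy3 arrays 1 to 3. It was above control on 5 of 6 arrays, with a fitted value of 0.22 (standard error 0.15, adjusted p = 0.721 from limma). hsp-3, its constitutive counterpart, was at 0.05 (adjusted p = 0.946), T14G8.3 at -0.03 and T24H7.2 at -0.01.

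In the mitochondrion, 13 of 14 listed folding, protease and stress response genes were tested. None passed limma or rank product, their median log2 ratio was 0.03, and 7 lay above and 6 below 0. At an unadjusted p under 0.05, 1 of the 13 was below control. This was clpp-1, the proteolytic subunit of a matrix protease, with log2 ratios of -0.48, -0.51 and -0.28 on Cy5 arrays 1 to 3, and -0.08, -0.27 and -0.35 on Cy3 arrays 1 to 3. It was below control on 6 of 6 arrays, as were 211 of the 6491 genes, and its fitted value was -0.33 (standard error 0.12, adjusted p = 0.440 from limma).

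lonp-1, the Lon protease of the matrix, had log2 ratios of -0.89, -0.09 and -1.09 on Cy5 arrays 1 to 3, and 0.24, 0.16 and -0.30 on Cy3 arrays 1 to 3. Its fitted value was -0.33 (standard error 0.17, adjusted p = 0.600 from limma). Of the 12 mitochondrial genes of the list measured on all arrays, 2, lonp-1 and phb-1, were below -0.3 on both Cy5 arrays 1 and 3. This share of 16.7% was near the 15.1% of all genes. On Cy5 array 3 ubl-5 was at 1.97, dnj-21 at 1.62 and spg-7 at 1.09. On Cy5 array 2 ubl-5 was at -1.77 and dnj-21 at -0.88, and their fitted values were 0.16 and 0.23. spg-7, a protease of the inner membrane, was above control on 5 of 6 arrays at 0.47 (standard error 0.22, adjusted p = 0.573), and was at -0.56 on Cy5 array 2. phb-2, a prohibitin, had a fitted log2 ratio of -0.30 (adjusted p = 0.681). atfs-1, the regulator of hsp-6 and hsp-60, was at 0.04 (adjusted p = 0.960).

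None of the regulators of the heat shock response passed a test. Of 5 genes 4 were tested, with 0 past either test, 0 at an unadjusted p under 0.05 and a median log2 ratio of 0.01. hsf-1, the heat shock factor, was at 0.11 on 5 arrays (adjusted p = 0.90 from limma). Its binding partners hsb-1 and ddl-1, which hold it inactive, were at -0.14 and -0.10, hsb-1 being below control on 6 of 6 arrays with ratios of -0.27 to -0.0011. daf-16, a FOXO factor of insulin signalling, was at 0.25 (standard error 0.16, adjusted p = 0.698).

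Genes with the most similar ratios were found by the mean absolute difference from a chaperone over the 6 arrays, among 6485 other genes. The closest to hsp-1 were the ribosomal protein genes rpl-35A (0.0238) and rpl-21 (0.0598), which were saturated in Cy5 on all 6 arrays as well. For hsp-6 they were eelo-1 (0.0853) and mrps-14 (0.0925), a protein of the mitochondrial ribosome. For hsp-60 they were pdi-6 (0.0387), a protein disulphide isomerase, and hyl-2 (0.0740), a ceramide synthase. For hsp-110 they were dpff-1 (0.0395) and rpn-2 (0.0435), a subunit of the proteasome cap. For daf-21 they were alh-9 (0.0928), an aldehyde dehydrogenase, and psme-3 (0.0943), a proteasome activator, and for hsp-75 cpn-2 (0.0999), a calponin, and dis-3 (0.126), a nuclease of the exosome. The median difference over all genes was 0.40 to 0.61, and the genes named were picked as the smallest of that many.

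Whether a chaperone passed depended on the weights given to the arrays. Weights estimated by limma were lowest for Cy5 arrays 2 and 3, at 0.274 and 0.222. They were highest for Cy3 array 2 at 3.87 and Cy5 array 1 at 3.03. With these weights 3 of the 6 genes passed limma, where 14.0% of all genes tested did. These were hsp-75 at -0.66 (adjusted p = 0.0130), daf-21 at -0.49 (adjusted p = 0.0219) and hsp-6 at 0.35 (adjusted p = 0.0319). Cy5 array 1 held the lowest ratio of hsp-75 at R151.7b, and daf-21 was at -1.04 on it and on Cy5 array 3. For hsp-6 it held the highest ratio, 0.42, close to the 0.40 of Cy3 array 1. With equal weights and Cy5 array 1 left out, hsp-75, daf-21 and hsp-6 were at -0.33, -0.24 and 0.15. With each array left out in turn and equal weights, 0 of the 6 passed limma or rank product, and no fitted ratio changed its sign. At its smallest the adjusted p of a chaperone in these fits was 0.120.

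**Figure D5:**
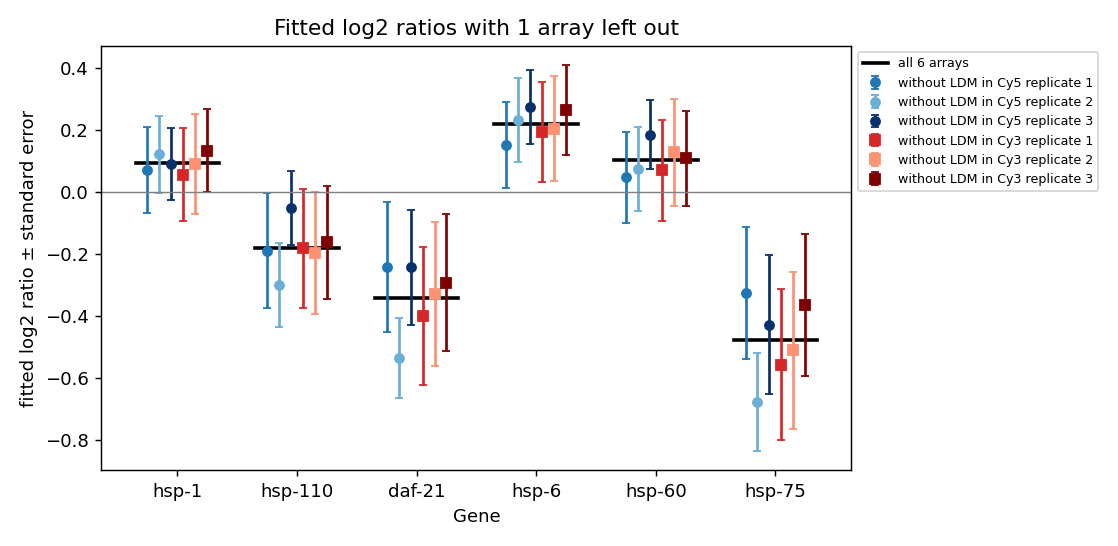
Fitted log2 ratio ± standard error from limma (y axis) of each tested chaperone gene (x axis) with 1 array left out, beside the value from all 6 arrays (black line). Every gene stays on its side of 0, with hsp-60 at 0.05 without Cy5 array 1 and hsp-110 at -0.05 without Cy5 array 3, while daf-21 moves between -0.53 and -0.24.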

How the data were processed

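Genes and lists were chosen with earlier results of these data known. For each spot the authors deposited unnormalized scanner intensities of both dyes, local backgrounds and the percent of saturated pixels. They also deposited a code of the image software whose meaning is not stated. Code 3 was taken as unmarked from the signal of the spots, and any other code as a mark. The authors' deposited log2 ratios, normalized in limma (version not given in the sources used here), served as an alternative; they are centred on 0 (column medians -0.00791 to -0.00047), already run as LDM over control on every array (r with the recomputed ratios 0.857 to 0.921), and their background correction is not stated. The Cy3 and Cy5 labels set the direction of each ratio.

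Ratios were recomputed in limma 3.58.1 (R 4.3.3) with normexp background correction (offset 50), global loess on unmarked gene spots and Aquantile between arrays. A gene was tested with at least 2 unmarked arrays per dye orientation, by its brightest probe. This left 7989 genes. The model held LDM and dye effects, with Benjamini-Hochberg adjusted p under 0.05. The rank product was rewritten after the methods with 100 permutations. Both were tested on simulated data.

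Of 22490 gene probes, 95.1% matched RefSeq names (WBcel235). All 7 chaperone genes are named, and of each partner list up to 4 genes with the smallest p and those past a test. Of the partner lists, atfs-1, Y22D7AL.10, phb-1, ubl-5, dnj-21, fkb-6, dnj-19, chn-1 and daf-41 were named outside this rule, with values known. The methods call the 6 replicates independent. Precision is limited by their number. Probe sequences and coordinates were not used here. The number of columns of no sample was 0. Alternatives were other background corrections, normalizations, filters, probe rules, blocks, weights, and each array left out. Those for shared controls, saturated spots and print-tip rank product were added after seeing the data.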

Additional observations from a re-analysis of the deposited data

Results flagged for a closer look

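For hsp-60, the mitochondrial chaperonin, 1 array stood apart from the other 5. On Cy5 array 3, LDM in Cy5 replicate 3, its log2 ratio was -0.33, while the other arrays lay between 0.11 and 0.34, and the gap to the nearest of them was 0.654 of the whole range. This is above the 95% critical value of Dixon for 6 values. About 1 in 20 groups is expected to pass this limit by chance, and 7 probes were looked at. In the log2 ratios deposited by the authors, Cy5 array 3 was at -0.23 and the others lay between 0.01 and 0.33. The gap was smaller there, and the limit was not applied to it. Without this array the log2 ratio of hsp-60 was 0.18 (adjusted p = 0.412 from limma).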

How the results depend on the processing

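No fitted ratio of the 6 tested chaperone genes changed its sign under any alternative run. Limma's array weights changed the calls of hsp-6 (0.35), hsp-75 (-0.66) and daf-21 (-0.49), so that 3 chaperone genes passed, and gave 464 higher and 655 lower genes. With each array left out, log2 ratios ranged from 0.06 to 0.13 for hsp-1, 0.15 to 0.28 for hsp-6, 0.05 to 0.18 for hsp-60, -0.68 to -0.33 for hsp-75, -0.30 to -0.05 for hsp-110 and -0.53 to -0.24 for daf-21. Over all genes limma then called 5 to 43 higher and 0 to 16 lower, and the rank product 83 to 120. The number of lower genes, 5 at first, was 3 with print-tip loess, 3 with marked spots kept, 9 with scale normalization between arrays, and 2 with the shared control number as a block at a preset correlation of 0.5. With dim probes left out, where fewer genes are tested, 7 were higher and 1 lower. With marked spots kept the rank product called 236 genes, against 140. With the replicate number as a block the genes called were 21 higher and 3 lower, and no chaperone gene passed. Same-numbered arrays deviated together with r of -0.03, 0.41 and 0.23, and differently numbered arrays with r of -0.41 to 0.03. The main fit did not pair arrays by number, and whether the numbers mark pairs was not tested. With saturated spots left out, hsp-1 and daf-21 could not be tested. A term for the day of image analysis was not fitted, since 1 of the days held a single array. The cause of these changes was not tested.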
